A study of Mus musculus with 20 samples.

Results

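Collagen chain genes were followed in the breast cancer (BC) model of a mouse study of tumours and their metastases. The members are the genes whose symbol in the deposited table is Col followed by a number, the letter a and a further number, with nothing after it, and that hold values in the BC libraries. There were 36 such genes among 15465 genes with BC values. The model was orthotopic, with tumours derived from 4T1, a mouse mammary carcinoma line, and tissue was taken at 28 days. The groups were 4 lung metastases and 4 primary tumours, read from the numbers in the titles as coming from the same 4 mice. They were sequenced as bulk tissue RNA, and 4T1 origin and time were common to both groups. No treatment was labelled, and the host strain and the mice's age and sex were not stated in the labels. The question of the series is which genes differ between primary tumours and their matched metastases.

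Collagens are extracellular matrix proteins in which chains with regularly spaced glycines wind into a helix. Fibrillar collagens (types I, III, V, XI) build tensile fibrils, type IV forms the sheet of basement membranes, type VI forms beaded filaments, fibril-associated collagens decorate fibrils, and transmembrane collagens sit in the plasma membrane. In tumours, fibroblasts are the main source of fibrillar collagen, and endothelium and epithelium lay down type IV collagen with their neighbours. In lung, the alveolar basement membrane is known to hold a type IV network of the α3, α4 and α5 chains beside the ubiquitous α1 and α2 chains.

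The glycine repeat that joins the family can be read directly in the transcripts. The first 54 bases of the longest repeat stretch are shown for a fibrillar chain that was the most abundant (Col3a1), for a less abundant fibrillar chain that was lower in metastases (Col5a3), for the type IV chains that were higher (Col4a3 and Col4a4), for the fibril-associated chain that was lower (Col12a1) and for a transmembrane chain that was higher (Col23a1). Capitals mark the glycine codon, GGN, that opens each repeat. Other glycine codons inside a repeat, as in Col3a1, stay in lower case. The letters come from GENCODE M21 transcripts.
Col3a1: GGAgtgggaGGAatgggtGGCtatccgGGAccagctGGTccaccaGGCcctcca
Col5a3: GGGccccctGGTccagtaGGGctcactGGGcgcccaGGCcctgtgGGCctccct
Col4a3: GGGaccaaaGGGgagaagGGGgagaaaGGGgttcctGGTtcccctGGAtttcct
Col4a4: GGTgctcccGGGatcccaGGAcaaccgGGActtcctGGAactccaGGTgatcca
Col12a1: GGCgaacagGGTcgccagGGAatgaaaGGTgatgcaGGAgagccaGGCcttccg
Col23a1: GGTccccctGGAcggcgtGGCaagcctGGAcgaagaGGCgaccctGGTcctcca
The uninterrupted run of such repeats was 344 in Col3a1 and 337 in Col5a3, whereas it was 39 in Col4a3, 45 in Col4a4, 32 in Col12a1 and 43 in Col23a1. The fibrillar chains thus carried a long unbroken stretch, and the other chains shown had stretches broken into shorter pieces.

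The values are normalised read counts, which are a gene's reads over a scaled size of its library, brought to a level of 1000000. Depth was 15447918 to 27051571 reads in lung metastases and 25168386 to 28995834 reads in primary tumours, so that 1 read was worth 0.0337 to 0.0676. A library with 0 reads of a gene allows up to 3 reads, worth 0.101 to 0.203 over the libraries, and these limits cover counting error only. A pair of libraries stood apart from their groups across all genes. The median correlation with libraries of the same group was 0.882 for lung metastasis 3, which was also the shallowest, and 0.955 for primary tumour 2, against 0.954 to 0.961 for the other lung metastases and 0.974 to 0.975 for the other primary tumours. Markers of lung epithelium, summed over 8 genes, ran from 7389 to 33801 in lung metastases and from 94.2 to 107 in primary tumours, with the highest sum in lung metastasis 3 and the lowest metastasis sum in lung metastasis 4. The carcinoma keratin and Epcam list of 6 genes summed to 599 to 2958 in lung metastases, against 1228 to 2573 in primary tumours, with lung metastasis 3 the lowest. Krt8 and Krt18 held most of that sum. Krt19, of the same list, was higher in every lung metastasis, at 76.0 to 188, against 8.77 to 22.2 in primary tumours.

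Of the 36 collagen chain genes, 4 rose in lung metastases and 4 fell, while the total collagen signal and the most abundant chains did not separate the groups. The test was limma on log2(value + 1) across 14003 genes, of which 32 were collagen chains, with Benjamini-Hochberg adjustment over all genes and a threshold of 0.05. The 4 members that rose were 12.5% of those tested, against 7.18% of all tested genes called higher. The 4 members that fell were also 12.5%, against 1.96% of all tested genes called lower, and the 8 called either way were 25%, against 9.13%. Not tested, because fewer than 4 libraries reached a value of 1, were Col11a1, Col6a4, Col6a5 and Col28a1. The median log2 change of the tested members was -0.05, and that of all tested genes was -0.06. Values of 9 members did not overlap between the groups (all 8 called members and Col7a1), against 17.9% of all tested genes. Of the 9, 4 were higher and 5 lower in metastases, against 10.4% and 7.56% of all tested genes. In bulk tissue, fewer cells of a type and less RNA per cell cannot be told apart, and the p-values measure the spread between the libraries of these 4 mice. Adjusted p-values come from limma where no other tool is named.

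**Figure D1:**
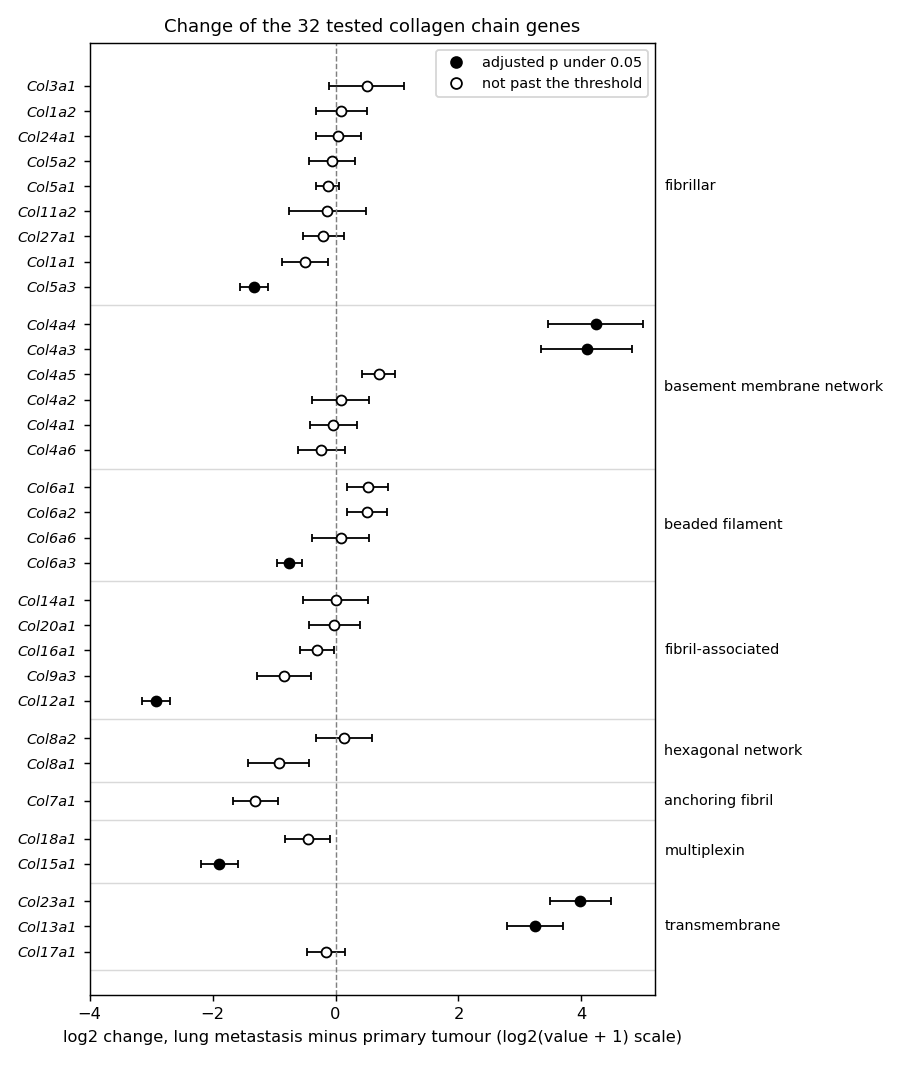
Log2 change (lung metastasis minus primary tumour, on the log2(value + 1) scale, x axis) of the 32 tested collagen chain genes, grouped by structural class, with bars of 1 standard error and filled points for an adjusted p under 0.05. The 4 genes that rose are type IV or transmembrane chains, and the 4 that fell are spread over the fibrillar, beaded filament, fibril-associated and multiplexin classes.

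Among the 6 basement membrane chains, Col4a3 and Col4a4 rose in lung metastases, and Col4a1, Col4a2, Col4a5 and Col4a6 did not pass the test. Col4a3 (ENSMUSG00000079465) encodes the α3 chain of the network found in alveoli and kidney glomeruli. Its normalised read count was 18.7, 29.5, 122 and 5.38 in lung metastases 1 to 4, against 0, 0.552, 1.45 and 0.493 in primary tumours 1 to 4. The lowest metastasis lay above the highest primary tumour, and lung metastasis 3 stood well above the others. Col4a3 rose by 4.09 on the log2 scale (adjusted p = 0.0065, SE 0.737), and it was higher in 4 of 4 mice. Col4a4 (ENSMUSG00000067158) encodes its partner, the α4 chain. It had 9.45, 24.1, 121 and 4.92 in lung metastases 1 to 4, against 0.517, 0, 0 and 0 in primary tumours 1 to 4. All 13 primary tumour reads of Col4a4 were in the library of mouse 1, against 2828 reads over the lung metastases. Col4a4 rose by 4.23 on the log2 scale (adjusted p = 0.00677, SE 0.770) in 4 of 4 mice.

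These chains tracked each other from library to library, in the order of lung metastases 3, 2, 1 and 4. Together they made 4.41%, 6.53%, 14.6% and 1.94% of the summed type IV value in lung metastases 1 to 4, against 0.110%, 0.0351%, 0.253% and 0.0697% in primary tumours 1 to 4. Per kilobase of exon, Col4a3 reached 0.0147 to 0.129 of the Col4a1 level in lung metastases, against 0 to 0.00322 in primary tumours. The α3 and α4 transcripts were thus a minor part of type IV signal in every library. Lung epithelium sums were 19038, 9620, 33801 and 7389 in lung metastases 1 to 4, highest and lowest in the same libraries as both chains. Of those sums, Scgb1a1 held 13234, 2144, 21013 and 3148. Each of the other markers on the list, such as Sftpc at 3957, 5014, 8152 and 3014, followed the order 3, 2, 1 and 4. By limma 7 of 8 lung epithelium markers rose, with none of them at 0 in a whole group. Sftpb, Sftpa1, Sftpd and Lamp3 reached a value of 1 in lung metastases only, so they were tested through that group alone. Lung fibroblast marker sums, at 254, 296, 487 and 229 in lung metastases 1 to 4, also followed the order 3, 2, 1 and 4. The endothelial, fibroblast and pan-leukocyte sums were highest in lung metastasis 3 and lowest in lung metastasis 4 as well. The part of lung epithelium or of these other cells in the rise of Col4a3 and Col4a4 was not tested. Without lung metastasis 3, Col4a3 was still higher, by 3.34 on the log2 scale (adjusted p = 0.0026). Col4a4 reached a value of 1 in lung metastases only, and it had too few such libraries to be tested once any lung metastasis was left out. It passed in the 12 alternatives that tested it (adjusted p at most 0.0477). All of these kept every lung metastasis, so they cannot show whether the call rests on a single one.

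The remaining chain of that network, Col4a5, did not pass the test. It had 37.9, 69.3, 64.9 and 43.2 in lung metastases, against 24.0, 44.3, 24.1 and 39.3 in primary tumours, with a log2 change of 0.70 (SE 0.276, adjusted p = 0.158). Values were higher in the metastasis of 4 of 4 mice, although the groups overlapped. Col4a6, which pairs with Col4a5 in other basement membranes, stayed low at 1.17 to 2.97 in lung metastases, against 1.39 to 4.46 in primary tumours (adjusted p = 0.75).

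**Figure D2:**
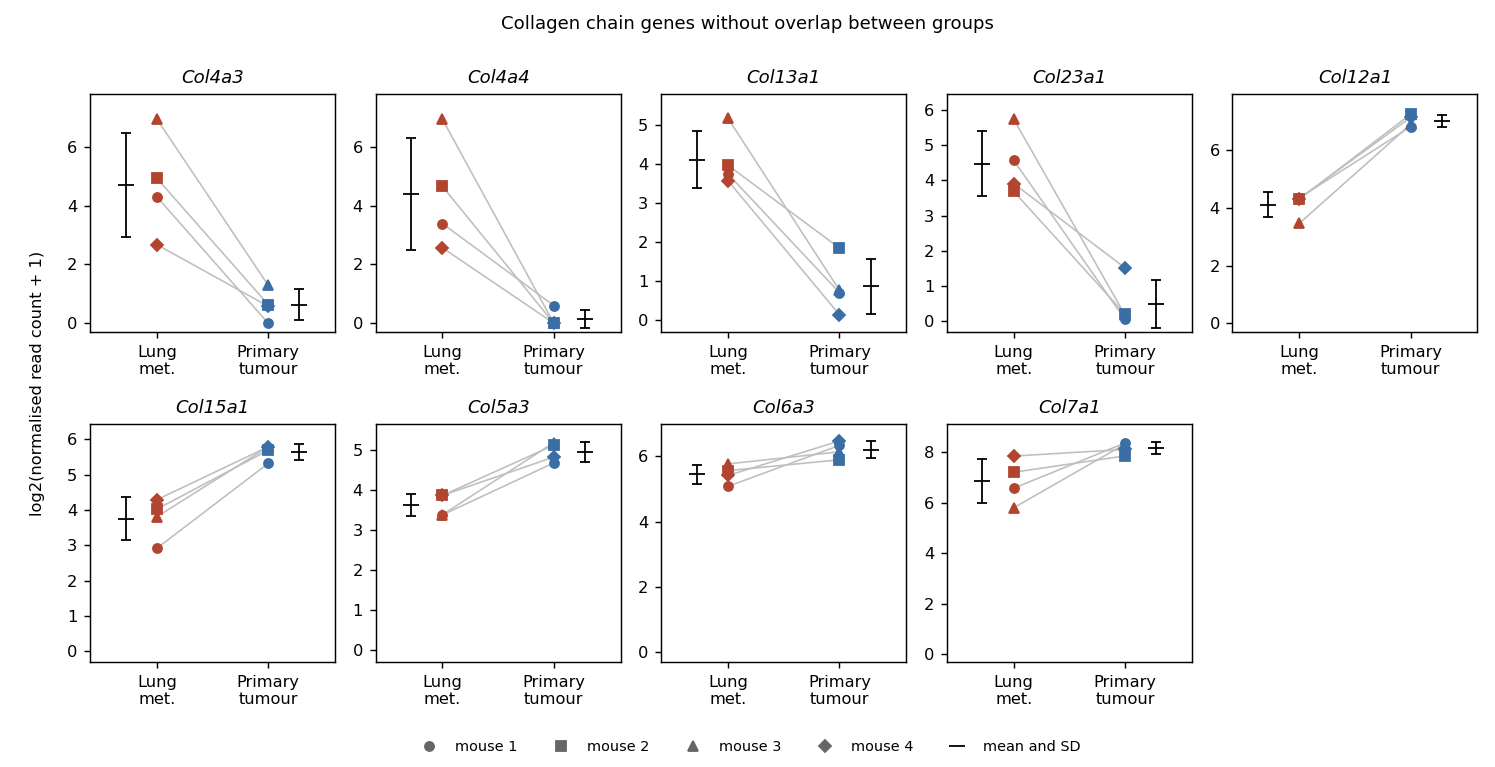
Values of the 9 collagen chain genes without overlap between groups, as log2(normalised read count + 1) (y axis), with lung metastases left of primary tumours, the libraries of a mouse joined by a line, and the mean with SD beside the points. Col4a3, Col4a4, Col13a1 and Col23a1 are higher in every lung metastasis, with lung metastasis 3 on top, whereas Col12a1, Col15a1, Col5a3, Col6a3 and Col7a1 are lower in every lung metastasis.

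The ubiquitous network chains Col4a1 and Col4a2 were among the most abundant collagens and did not separate the groups. Col4a1, which encodes the α1 chain, had 366, 448, 735 and 283 in lung metastases 1 to 4, against 285, 912, 348 and 414 in primary tumours 1 to 4. Col4a2, the α2 chain, had 204, 249, 625 and 190 in lung metastases, against 157, 614, 199 and 250 in primary tumours. In both genes the same pair of libraries was high, lung metastasis 3 and primary tumour 2. The log2 changes were -0.03 (SE 0.386, adjusted p = 0.968) for Col4a1 and 0.08 (SE 0.463, adjusted p = 0.935) for Col4a2. The sign of Col4a1 turned to 0.32 without primary tumour 2, and that of Col4a2 turned to -0.30 without lung metastasis 3. Endothelial markers, summed over 8 genes, were also highest in those libraries of each group. Their sums were 845, 650, 2119 and 460 in lung metastases 1 to 4, against 145, 718, 200 and 278 in primary tumours 1 to 4. The fibroblast, pericyte and smooth muscle, and pan-leukocyte sums were highest in the same libraries. Fibroblast markers, for example, summed to 665 in lung metastasis 3 and 341 in primary tumour 2. The part of any of these cells in the Col4a1 and Col4a2 values was not tested.

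Col4a1 and Col4a2 lie next to each other in opposite directions, and their promoter windows are shown because the genes varied together and share sequence. The windows run from 250 bases before to 50 bases after the start in RefSeq, build GRCm38.p6, at chr8:11312777-11313076 on the minus strand for Col4a1 and chr8:11312555-11312854 on the plus strand for Col4a2. Capitals mark the 78 bases that both windows hold, read from opposite strands.
Col4a1: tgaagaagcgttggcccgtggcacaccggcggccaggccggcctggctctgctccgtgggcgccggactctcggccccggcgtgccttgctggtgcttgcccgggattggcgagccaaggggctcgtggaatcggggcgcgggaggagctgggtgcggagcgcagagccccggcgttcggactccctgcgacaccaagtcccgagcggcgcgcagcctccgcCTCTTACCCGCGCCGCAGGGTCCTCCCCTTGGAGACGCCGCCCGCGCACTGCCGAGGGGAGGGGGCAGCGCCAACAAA
Col4a2: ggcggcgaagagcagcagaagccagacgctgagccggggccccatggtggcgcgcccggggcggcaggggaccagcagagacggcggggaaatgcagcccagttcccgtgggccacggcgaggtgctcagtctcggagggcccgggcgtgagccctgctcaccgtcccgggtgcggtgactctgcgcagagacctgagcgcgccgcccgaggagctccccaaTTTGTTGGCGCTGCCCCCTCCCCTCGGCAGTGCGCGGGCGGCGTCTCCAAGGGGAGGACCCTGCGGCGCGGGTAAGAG
The annotated starts lie 21 bases apart, at 11312826 for Col4a1 and 11312805 for Col4a2. Each gene as annotated runs across the start of the other, so the genes overlap there and no gap lies between them. The per kilobase ratio of Col4a1 to Col4a2 was 1.75, 1.75, 1.15 and 1.45 in lung metastases, against 1.77, 1.45, 1.71 and 1.61 in primary tumours. Neighbouring collagen genes in RefSeq also included Col4a4 with Col4a3, where both rose, and Col6a2 with Col6a1 and Col3a1 with Col5a2, where no gene passed the test. The Col6a6, Col6a5 and Col6a4 genes and the Col4a6 and Col4a5 genes were neighbours as well, with no call among those tested.

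Among the 3 transmembrane collagens, Col13a1 and Col23a1 rose in lung metastases, and Col17a1 was low in both groups. Col13a1 (ENSMUSG00000058806), a membrane collagen of cell adhesion sites, had 12.4, 14.6, 34.9 and 10.9 in lung metastases 1 to 4, against 0.636, 2.60, 0.708 and 0.106 in primary tumours 1 to 4. Its log2 change was 3.24 (SE 0.453, adjusted p = 0.00147), with 4 of 4 mice higher. Col23a1 (ENSMUSG00000063564), a membrane collagen with a shed ectodomain, had 22.7, 11.9, 52.3 and 14.0 in lung metastases, against 0.0397, 0.158, 0.135 and 1.87 in primary tumours. Every metastasis lay above every primary tumour in both genes. The log2 change of Col23a1 was 3.98 (SE 0.497, adjusted p = 0.00078), with 4 of 4 mice higher. Col17a1, a hemidesmosome collagen of basal epithelium, had 0.676 to 1.01 in lung metastases, against 0.513 to 1.83 in primary tumours and did not pass the test (adjusted p = 0.798).

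Summed over the 3 genes, transmembrane collagen was 36.1, 27.2, 88.2 and 25.7 in lung metastases 1 to 4, against 1.71, 3.27, 1.92 and 3.80 in primary tumours 1 to 4. It formed 0.560% to 2.35% of all collagen signal in lung metastases, against 0.0414% to 0.0884% in primary tumours. Ranked by level per kilobase among the 36 chains, Col13a1 stood at place 16 in lung metastases and 28 in primary tumours, and Col23a1 at place 18 and 31. Lung metastasis 3 was highest for both genes and had the most lung epithelium signal. It also had the highest endothelial, fibroblast, lung fibroblast, pericyte and smooth muscle, and pan-leukocyte sums of the lung metastases. The mesothelial sum was highest in lung metastasis 2. The part of any of these cells in the values of both genes was not tested. Without lung metastasis 3 the log2 changes were 2.89 for Col13a1 (adjusted p = 0.00138) and 3.56 for Col23a1 (adjusted p = 0.00047).

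The promoter windows of both genes are shown because both genes rose. They lie at chr10:61979059-61979358 on the minus strand for Col13a1 and chr11:51289670-51289969 on the plus strand for Col23a1, from RefSeq in build GRCm38.p6. Capitals mark matches on either strand to TATAAA in Col13a1 and to GGGCGG in Col23a1.
Col13a1: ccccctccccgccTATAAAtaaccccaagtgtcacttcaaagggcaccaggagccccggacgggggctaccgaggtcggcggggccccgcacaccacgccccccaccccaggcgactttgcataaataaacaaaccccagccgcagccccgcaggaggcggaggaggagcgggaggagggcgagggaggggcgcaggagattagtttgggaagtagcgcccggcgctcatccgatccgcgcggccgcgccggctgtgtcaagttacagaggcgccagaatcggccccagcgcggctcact
Col23a1: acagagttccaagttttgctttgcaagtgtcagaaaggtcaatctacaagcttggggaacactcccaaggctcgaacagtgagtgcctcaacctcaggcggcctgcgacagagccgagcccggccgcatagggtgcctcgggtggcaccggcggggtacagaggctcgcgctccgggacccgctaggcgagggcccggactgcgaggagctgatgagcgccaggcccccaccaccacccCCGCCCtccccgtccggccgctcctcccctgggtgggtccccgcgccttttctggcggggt
Windows were found for 30 of the 36 members, 32 windows in all. There were 4 motifs searched on both strands, and no motif is contained in another. TATAAA was in 4 of the 32 windows, against 13.6% of 32851 windows of all genes, CCAAT was in 11, against 37.4%, GGGCGG was in 21, against 35.7%, and TGACTCA was in 1, against 5.2%. A match describes letters in a window and not a site in use. The windows of Col4a4, Col15a1 and Col6a3 held none of the 4 motifs, and that of Col5a3 held 1 CCAAT and 3 GGGCGG matches.

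Of the 9 tested fibrillar chains, Col5a3 fell and the other 8 did not pass the test, the 3 most abundant ones included. Col3a1, the type III chain, was first in level per kilobase in both groups. It had 687, 1178, 370 and 729 in lung metastases 1 to 4, against 760, 110, 836 and 763 in primary tumours 1 to 4. The metastases spread on both sides of the primary tumours, and primary tumour 2 held the lowest value of all. The log2 change of Col3a1 was 0.50 (SE 0.616, adjusted p = 0.661), and without primary tumour 2 it was -0.20 (adjusted p = 0.787).

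Type I collagen is a trimer of α1 chains from Col1a1 and an α2 chain from Col1a2. Col1a1 had 211, 358, 237 and 308 in lung metastases 1 to 4, against 501, 160, 556 and 485 in primary tumours 1 to 4. Its mean was 279 ± 66.9 in lung metastases and 426 ± 180 in primary tumours (SD, n = 4 each), a log2 change of -0.49 (SE 0.373, adjusted p = 0.466). In 3 of 4 mice the metastasis was lower, and mouse 2 went the other way. Without primary tumour 2, the log2 change was -0.91 and passed the threshold (adjusted p = 0.0422). Col1a2 had 382, 548, 271 and 411 in lung metastases, against 517, 137, 549 and 461 in primary tumours, with a log2 change of 0.10 (SE 0.419, adjusted p = 0.916). Without primary tumour 2 it was -0.38 (adjusted p = 0.459).

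The balance of the type I chains separated the groups where neither chain did. The per kilobase ratio of Col1a1 to Col1a2 was 0.498, 0.588, 0.789 and 0.677 in lung metastases 1 to 4, against 0.875, 1.06, 0.913 and 0.948 in primary tumours 1 to 4. Every metastasis had a lower ratio than every primary tumour, primary tumour 2 included. The ratio was among 13 ratios computed between chains, was not tested, and rests on exon lengths from GENCODE M21 (GRCm38), whereas the reads were counted on build mm9. A length error would scale all libraries alike.

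**Figure D3:**
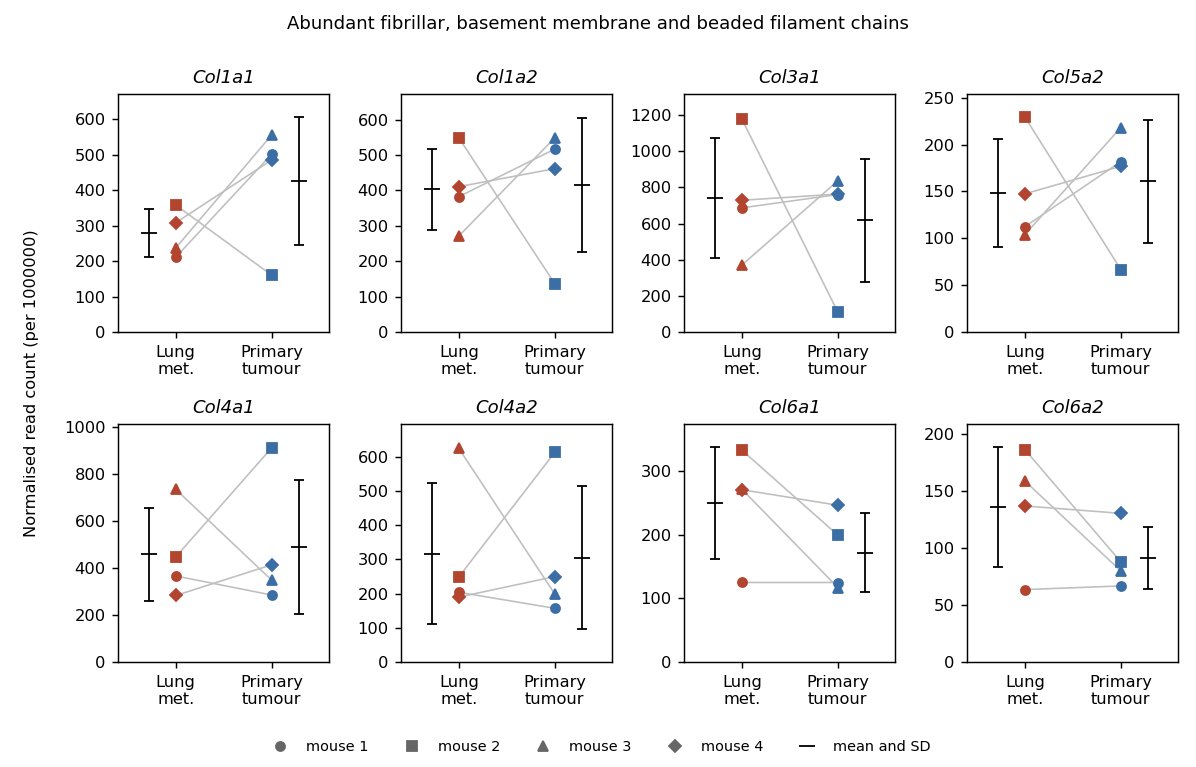
Normalised read counts (y axis, per 1000000, linear) of abundant collagen chains, with lung metastases left of primary tumours, the libraries of a mouse joined by a line, and the mean with SD beside the points. Primary tumour 2 is the lowest primary tumour for Col1a1, Col1a2, Col3a1 and Col5a2 and the highest for Col4a1 and Col4a2.

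Type V collagen sets fibril diameter, and its chains behaved differently. Col5a3 (ENSMUSG00000004098), the α3(V) chain of restricted distribution, had 9.37, 13.5, 9.40 and 13.5 in lung metastases 1 to 4, against 24.5, 33.7, 35.2 and 27.2 in primary tumours 1 to 4. The groups did not overlap, and Col5a3 fell by 1.33 on the log2 scale (adjusted p = 0.0051, SE 0.230) in 4 of 4 mice. Col5a1, the α1(V) chain, had 102, 133, 104 and 107 in lung metastases, against 93.6, 160, 122 and 118 in primary tumours (adjusted p = 0.724, log2 change -0.13, SE 0.188). Col5a2, the α2(V) chain, had 112, 229, 104 and 147 in lung metastases, against 182, 66.6, 218 and 177 in primary tumours (adjusted p = 0.941, log2 change -0.06, SE 0.372). Col5a2 shared its low value in primary tumour 2 with Col1a1, Col1a2 and Col3a1, and Col5a1 did not. The per kilobase ratio of Col5a3 to Col5a1 was 0.124 to 0.173 in lung metastases, against 0.289 to 0.398 in primary tumours.

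The remaining fibrillar chains were scarce. Col11a2, a chain of cartilage type XI collagen, had 3.88 to 31.4 in lung metastases, against 4.45 to 24.5 in primary tumours, with the highest values again in lung metastasis 3 and primary tumour 2 (adjusted p = 0.925). Its partner Col11a1 had 15 reads in all lung metastases and 125 reads in all primary tumours and was not tested. Col24a1 and Col27a1 had means between 2.83 and 9.50 over the groups and did not pass the test.

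Among the 5 fibril-associated chains, Col12a1 fell by the most of any tested collagen, and the other 4 did not pass the test. Col12a1 (ENSMUSG00000032332) encodes type XII collagen, which binds the surface of type I fibrils. It had 19.5, 18.8, 10.1 and 19.2 in lung metastases 1 to 4, against 112, 152, 119 and 141 in primary tumours 1 to 4. Its mean was 16.9 ± 4.54 in lung metastases and 131 ± 18.5 in primary tumours (SD, n = 4 each), so that the primary tumours held 7.76 times as much. Both groups were tight and far apart. Col12a1 fell by 2.92 on the log2 scale (adjusted p = 6.48e-05, SE 0.230) in 4 of 4 mice, and it passed in all 17 alternatives (adjusted p at most 0.00121).

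Other fibril-associated chains had no such gap. Col14a1, the relative of type XII that also binds fibrils, had 19.2 to 61.0 in lung metastases, against 11.2 to 84.1 in primary tumours (adjusted p = 0.999, log2 change 0.00, SE 0.530). Col16a1 had 177, 170, 86.1 and 224 in lung metastases, against 194, 233, 169 and 175 in primary tumours (adjusted p = 0.539, log2 change -0.30, SE 0.270). Per kilobase, the ratio of Col12a1 to Col14a1 was 0.161 to 0.539 in lung metastases, against 0.752 to 7.24 in primary tumours. Col20a1 and Col9a3 had means of 1.47 to 4.12 over the groups.

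Type VI collagen is assembled from an α1, an α2 and an α3 chain, and here the chains parted. Col6a3 (ENSMUSG00000048126), the large α3 chain, had 32.9, 46.3, 53.6 and 41.7 in lung metastases 1 to 4, against 79.9, 58.6, 69.6 and 87.8 in primary tumours 1 to 4. The groups did not overlap, and Col6a3 fell by 0.75 on the log2 scale (adjusted p = 0.0404, SE 0.199) in 4 of 4 mice. That call is close to the threshold: it was lost with the mouse as a block (adjusted p = 0.0862), with edgeR on the recovered reads (0.059), with median-ratio scaling (0.0575), and without any of lung metastases 1, 2 or 4 or primary tumours 1, 3 or 4 (0.0719 to 0.143). Col6a1, the α1 chain, had 125, 333, 272 and 271 in lung metastases, against 125, 199, 117 and 246 in primary tumours (adjusted p = 0.386, log2 change 0.52, SE 0.334). Col6a2, the α2 chain, had 63.6, 186, 159 and 137 in lung metastases, against 66.8, 87.8, 79.9 and 130.5 in primary tumours (adjusted p = 0.381, log2 change 0.51, SE 0.326). The per kilobase ratio of Col6a3 to Col6a1 was 0.0525 to 0.0994 in lung metastases, against 0.111 to 0.241 in primary tumours. The alternative chains Col6a4, Col6a5 and Col6a6 stayed at 2.64 or below in every library.

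Col7a1, Col15a1 and Col8a1 were lower in the metastasis of 4 of 4 mice, and of these Col15a1 passed the test. Col15a1 (ENSMUSG00000028339), a multiplexin that links basement membranes to the fibrils below, had 6.56, 15.3, 13.05 and 18.6 in lung metastases 1 to 4, against 39.0, 50.8, 54.4 and 54.5 in primary tumours 1 to 4. It fell by 1.89 on the log2 scale (adjusted p = 0.00281, SE 0.293), with no overlap between groups. Col18a1, the other multiplexin and the source of endostatin, had 198, 380, 118 and 323 in lung metastases, against 414, 195, 409 and 308 in primary tumours (adjusted p = 0.5, log2 change -0.45, SE 0.372). Col18a1 values overlapped, with primary tumour 2 the lowest primary tumour.

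Col7a1, the anchoring fibril chain of skin and other stratified epithelia, had 94.7, 147, 54.9 and 230 in lung metastases 1 to 4, against 331, 231, 321 and 277 in primary tumours 1 to 4. The groups did not overlap, by a margin that rests on lung metastasis 4 and primary tumour 2. Its log2 change of -1.31 (SE 0.368) missed the threshold (adjusted p = 0.0523). It passed with DESeq2 on the recovered reads (0.0321), without lung metastasis 3 (0.0418) and without lung metastasis 4 (0.012). Col8a1, of the hexagonal network found in vessel walls, had 110, 162, 22.9 and 123 in lung metastases, against 141, 183, 172 and 151 in primary tumours (adjusted p = 0.295, log2 change -0.92, SE 0.494). Its partner Col8a2 had 2.06 to 8.32 in lung metastases, against 1.20 to 5.68 in primary tumours (adjusted p = 0.883).

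Over all 36 chains, the amount of collagen transcript overlapped between the groups. The summed value was 3052, 4852, 3744 and 3720 in lung metastases 1 to 4, against 4131, 3704, 4522 and 4376 in primary tumours 1 to 4. The mean was 3842 ± 746 in lung metastases and 4183 ± 358 in primary tumours (SD, n = 4 each), a log2 ratio of means of -0.12, which is smaller than the spread between libraries. As a share of all reads, collagen chains made up 0.310% to 0.504% in lung metastases, against 0.373% to 0.463% in primary tumours.

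The make-up of that sum differed most in the libraries that stood apart. Fibrillar chains made 49.8%, 51.0%, 30.5% and 46.6% of the collagen value in lung metastases 1 to 4, against 50.9%, 19.0%, 51.6% and 46.8% in primary tumours 1 to 4. Basement membrane chains made 20.9%, 16.9%, 44.6% and 14.2% in lung metastases, against 11.3%, 42.5%, 12.7% and 16.2% in primary tumours. Lung metastasis 3 and primary tumour 2 thus had the lowest fibrillar and highest basement membrane share of their groups. Fibril-associated chains made 3.61% to 7.63% in lung metastases, against 8.12% to 11.0% in primary tumours. Those ranges did not overlap, nor did those of the anchoring fibril chain, at 1.47% to 6.20% in lung metastases, against 6.25% to 8.00% in primary tumours.

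**Figure D4:**
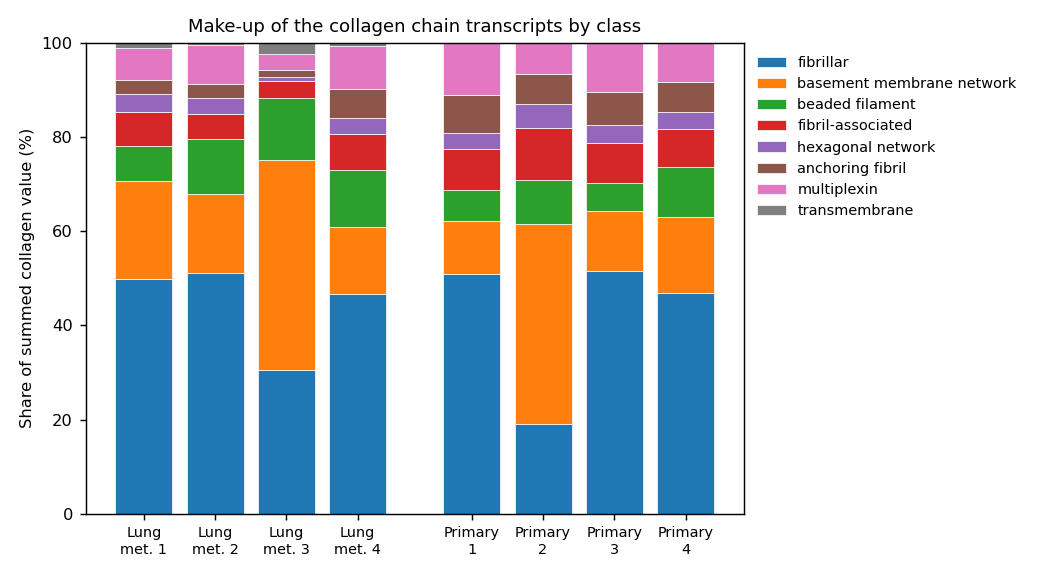
Share (%) of the summed collagen value held by each structural class in each library, with the 4 lung metastases left of the 4 primary tumours. The class of Col28a1, at most 0.109% of a library, is not drawn, and the basement membrane share stands out at 44.6% in lung metastasis 3 and 42.5% in primary tumour 2.

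Of the enzymes that build collagen, few passed the test. By limma, 0 of the 15 genes of prolyl and lysyl hydroxylation and glycosylation passed, 6 had an unadjusted p under 0.05, and edgeR and DESeq2 on the recovered reads each called 1, Glt25d2. The smallest limma p-values were those of Glt25d2 (now Colgalt2, log2 change 1.76, adjusted p = 0.0506), Lepre1 (now P3h1, -0.65, adjusted p = 0.118) and Glt25d1 (now Colgalt1, -0.58, adjusted p = 0.188). Glt25d2 passed with edgeR (0.0409), with DESeq2 (0.000574), with a pseudocount of 0.1 (0.0453) and without lung metastasis 4 (0.0321). Of 8 folding and export genes 1 rose, Creb3l1, a transcription factor of the secretory pathway that drives type I collagen genes, with 10.7 ± 2.98 in lung metastases, against 3.49 ± 1.22 in primary tumours (SD, n = 4 each, log2 change 1.39, adjusted p = 0.017). That call was lost without lung metastasis 2 or primary tumour 1 (0.0559 to 0.0688).

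Of the 5 cross-linking enzymes 2 rose, Lox and Loxl1, which oxidise lysines to join chains. Lox had 72.0, 110, 173 and 62.5 in lung metastases 1 to 4, against 34.6, 8.60, 39.9 and 30.4 in primary tumours 1 to 4 (adjusted p = 0.0272, log2 change 1.92, SE 0.462). Loxl1 had 35.7, 68.7, 58.3 and 59.5 in lung metastases, against 14.1, 9.74, 19.0 and 15.7 in primary tumours (adjusted p = 0.00165, log2 change 1.85, SE 0.264). Neither gene overlapped between groups. Loxl3 leaned the other way, with 58.3 ± 22.1 in lung metastases, against 120 ± 31.7 in primary tumours (SD, n = 4 each), and missed the threshold (log2 change -1.06, adjusted p = 0.0519). Loxl3 passed without lung metastasis 2 or primary tumour 2 (0.0267 to 0.0395), without both lung metastasis 3 and primary tumour 2 (0.00315) and with DESeq2 (0.0139), and the Lox call was lost without lung metastasis 1 or 2 or primary tumour 4 (0.0628 to 0.0876).

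Of the 6 tested genes of propeptide cleavage, Bmp1 fell and Pcolce2 rose. Bmp1, the procollagen C-proteinase, had 250, 254, 107 and 255 in lung metastases 1 to 4, against 474, 327, 478 and 550 in primary tumours 1 to 4 (adjusted p = 0.0397, log2 change -1.14, SE 0.300). Pcolce2, an enhancer of that enzyme, had 83.3 ± 8.69 in lung metastases and 57.4 ± 1.90 in primary tumours (SD, n = 4 each, log2 change 0.52, adjusted p = 0.0493). With the mouse as a block both calls were lost (adjusted p = 0.0533 for Bmp1 and 0.12 for Pcolce2). Bmp1 also missed with edgeR (0.0527), and Pcolce2 with a pseudocount of 5 (0.0513) and with no filter on low values (0.0534). Bmp1 further missed without lung metastasis 1 or 2 or primary tumour 1, 3 or 4 (0.0703 to 0.131), and Pcolce2 when any library other than lung metastasis 3 was left out (0.093 to 0.134).

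Among 11 tested genes of proteins that bind fibrils, 6 rose and 2 fell, against 7.18% and 1.96% of all tested genes. The 6 that rose include small leucine-rich proteoglycans that coat fibrils. Dcn (decorin) had 121, 137, 97.4 and 212 in lung metastases 1 to 4, against 58.8, 53.0, 68.9 and 59.1 in primary tumours 1 to 4 (adjusted p = 0.00962, log2 change 1.18, SE 0.228). Ogn (osteoglycin) had 66.6, 71.5, 202 and 29.0 in lung metastases, against 3.30, 12.1, 8.43 and 6.13 in primary tumours (adjusted p = 0.00369, log2 change 3.24, SE 0.528). Dcn and Ogn had no overlap and passed in all 17 alternatives. Bgn (biglycan, 1.38, adjusted p = 0.0411), Fmod (fibromodulin, 1.81, adjusted p = 0.0445), Prelp (3.12, adjusted p = 0.0451) and the tenascin Tnxb (3.09, adjusted p = 0.0142) also rose, where each first number is the log2 change. The Fmod call was lost with the mouse as a block (adjusted p = 0.0711), with edgeR (0.159), with DESeq2 (0.0632), with a pseudocount of 5 (0.111) and without both lung metastasis 3 and primary tumour 2 (0.101). The Prelp call was lost with edgeR (0.117) and with pseudocounts of 0.1 (0.0668) and 5 (0.0735), and the Bgn call with edgeR (0.0527). Leaving out 1 library ended the call of Bgn for 6 of the 8 libraries (all but lung metastases 3 and 4, 0.0518 to 0.116), of Fmod for 7 (all but lung metastasis 4, 0.0563 to 0.122), of Prelp for 6 (all but lung metastasis 4 and primary tumour 2, 0.0586 to 0.137) and of Tnxb for primary tumours 1 and 4 (0.0507 to 0.0538).

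The matricellular proteins Postn (periostin) and Tnc (tenascin C) fell. Postn had 64.9, 50.9, 86.5 and 33.8 in lung metastases 1 to 4, against 336, 84.4, 388 and 395 in primary tumours 1 to 4 (adjusted p = 0.0161, log2 change -2.18, SE 0.475). Tnc had 21.7, 33.1, 8.45 and 56.2 in lung metastases, against 138, 61.1, 159 and 108 in primary tumours (adjusted p = 0.0225, log2 change -2.12, SE 0.494). Postn overlapped in primary tumour 2, the library where Col1a1, Col1a2, Col3a1 and Col5a2 were lowest, and Tnc did not overlap. Both calls were lost without any of lung metastases 1 or 2 or primary tumours 1, 3 or 4 (0.0529 to 0.0629 for Postn and 0.0523 to 0.0808 for Tnc). Lum, the lumican core protein, had 2.45 to 5.93 in lung metastases, against 2.72 to 60.6 in primary tumours (log2 change -2.57) and did not pass (adjusted p = 0.0656). Lum passed with the mouse as a block (0.0356), with edgeR (0.0268) and with DESeq2 (2.31e-05).

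**Figure D5:**
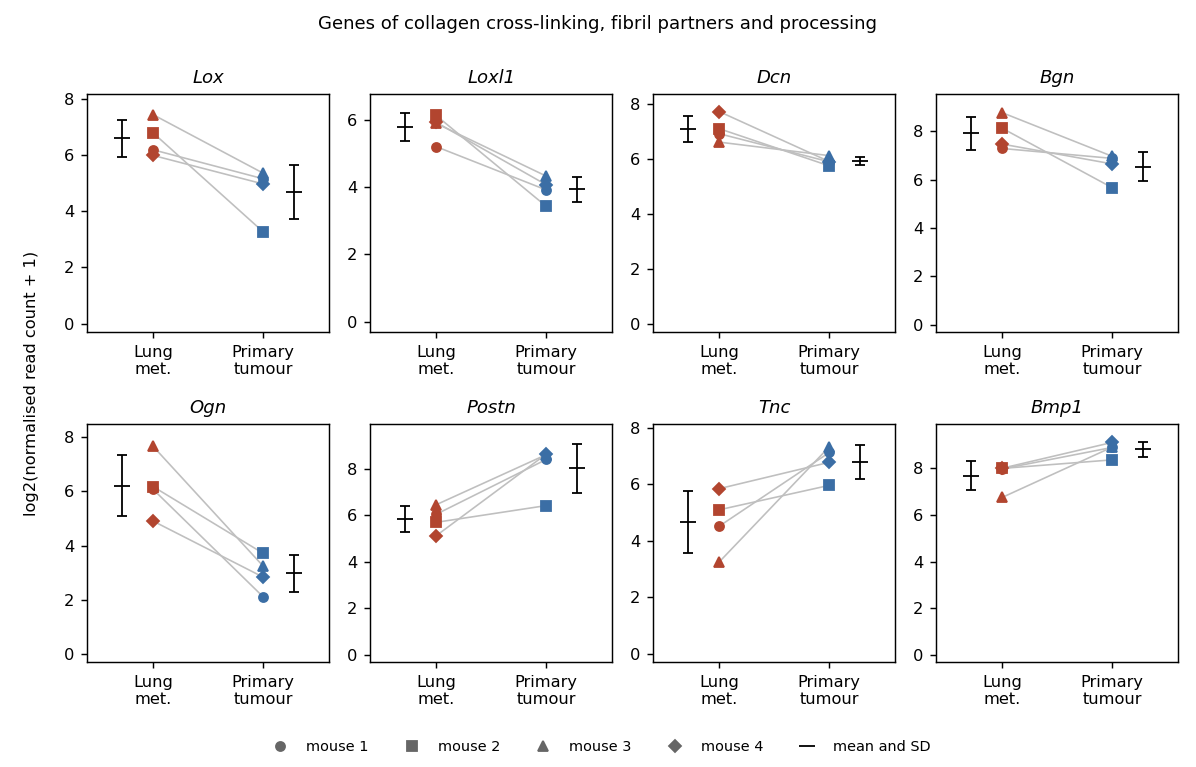
Log2(normalised read count + 1) (y axis) of genes that cross-link, bind or process collagen, with lung metastases left of primary tumours, the libraries of a mouse joined by a line, and the mean with SD beside the points. Lox, Loxl1, Dcn, Bgn and Ogn are higher in the metastasis of each mouse, and Postn, Tnc and Bmp1 are lower in each.

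Of 7 collagen-cleaving enzymes, Mmp8 and Mmp9 rose and Fap fell. Mmp8, the collagenase of neutrophils, had 187, 141, 875 and 126 in lung metastases 1 to 4, against 4.69, 39.2, 3.17 and 4.30 in primary tumours 1 to 4 (adjusted p = 0.00334, log2 change 4.79, SE 0.767). Mmp9, a gelatinase, had 285, 147, 799 and 120 in lung metastases, against 69.9, 99.3, 34.3 and 52.0 in primary tumours (adjusted p = 0.0384, log2 change 2.07, SE 0.540). Both were highest in lung metastasis 3, and the pan-leukocyte list of 5 genes, which includes Ly6g of neutrophils, summed to 248 to 812 in lung metastases, against 148 to 174 in primary tumours with its highest sum there too. The part of leukocytes was not tested. Fap, a fibroblast surface protease, had 1.96 ± 1.31 in lung metastases and 6.58 ± 1.75 in primary tumours (SD, n = 4 each, log2 change -1.44, adjusted p = 0.0387). With the mouse as a block, Mmp9 (adjusted p = 0.0625) and Fap (0.0647) did not pass, and Fap also missed with edgeR (0.0984) and with a pseudocount of 0.1 (0.0573). Leaving out 1 library ended the call of Mmp9 for lung metastases 1 and 2 and primary tumours 1, 3 and 4 (0.0554 to 0.117), and that of Fap for all but lung metastases 2 and 4 (0.0547 to 0.13).

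Of 10 basement membrane partners, Sparcl1 rose and Lama5 and Pxdn fell. Sparcl1, a secreted relative of the collagen-binding protein SPARC, had 258 ± 54.9 in lung metastases and 121 ± 30.2 in primary tumours (SD, n = 4 each, log2 change 1.10, adjusted p = 0.0132). Lama5, the laminin α5 chain, had 305 ± 30.7 in lung metastases and 471 ± 27.6 in primary tumours (SD, n = 4 each, log2 change -0.63, adjusted p = 0.036). Pxdn, the peroxidase that makes the sulfilimine cross-link of type IV collagen, had 109 ± 12.7 in lung metastases and 160 ± 11.9 in primary tumours (SD, n = 4 each, log2 change -0.56, adjusted p = 0.0424). With the mouse as a block, Lama5 (adjusted p = 0.0949) and Pxdn (0.0909) did not pass, and Pxdn also missed with edgeR (0.052) and without both lung metastasis 3 and primary tumour 2 (0.0548). The Sparcl1 call was lost without lung metastasis 2 (0.0527), and those of Lama5 (0.0736 to 0.113) and Pxdn (0.0537 to 0.134) when any library other than lung metastasis 3 was left out. Of the 8 collagen receptors 0 passed by limma, edgeR or DESeq2, and 0 had an unadjusted limma p under 0.05. The smallest adjusted p was that of Mrc2, an endocytic receptor (log2 change 0.93, adjusted p = 0.224), followed by Ddr1 (-0.34, 0.3) and Itgb1 (-0.45, 0.356).

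Markers of the cells that make collagen moved in different directions. Of 8 fibroblast markers 2 rose and 2 fell, and their sum was 350, 274, 665 and 216 in lung metastases 1 to 4, against 246, 341, 267 and 322 in primary tumours 1 to 4. The most abundant, Pdgfra, had 168 ± 58.6 in lung metastases and 137 ± 53.0 in primary tumours (SD, n = 4 each). Of 7 lung fibroblast markers 6 rose, with a sum of 229 to 487 in lung metastases, against 52.9 to 290 in primary tumours. Npnt, which did not pass, held most of the primary tumour sum, at 97.1, 32.8, 285 and 134 in primary tumours 1 to 4. Tcf21, Tbx4, Tbx5 and Fgf10 reached a value of 1 in lung metastases only. With edgeR the calls of Wnt2 (adjusted p = 0.305), Itga8 (0.107) and Fgf10 (0.0664) were lost. Wnt2 also missed with DESeq2 (0.201), and Itga8 with the mouse as a block (0.0566). All 7 mesothelial markers rose by limma, with a sum of 181 to 520 in lung metastases, against 55.0 to 143 in primary tumours. Msln held nearly all of the primary tumour sum (54.8 to 143) and overlapped between the groups. Its call was lost with the mouse as a block (adjusted p = 0.0854) and with edgeR (0.057). The other mesothelial markers reached a value of 1 in lung metastases only, so they were tested through that group alone, and 2 of the 7 were at 0 in every primary tumour. Of 8 endothelial markers 4 rose and 0 fell by limma. Their sum was 460 to 2119 in lung metastases, against 145 to 718 in primary tumours, so the groups overlapped. Kdr, Tek, Vwf and Cldn5 rose, and the Cldn5 call was lost with edgeR (adjusted p = 0.0803). Of 8 pericyte and smooth muscle markers 1 rose and 1 fell, with a sum of 125 to 313 in lung metastases, against 131 to 357 in primary tumours. The marker that fell, Rgs5, had 2.84 to 5.22 in lung metastases, against 41.4 to 146 in primary tumours (adjusted p = 0.000169). It also passed with the mouse as a block, edgeR and DESeq2. The marker that rose, Cnn1, overlapped between groups and was lost with the block (0.0708) and edgeR (0.0658). Both were named after their values were seen. The lists of chondrocyte, skeletal muscle and adipocyte markers had 3, 2 and 4 genes in the table, of which 1, 2 and 2 were tested and 0 passed by limma. For the chondrocyte and skeletal muscle lists, 0 had an unadjusted p under 0.05 and edgeR and DESeq2 called 0. Of the adipocyte markers, Cfd had an unadjusted p under 0.05 (adjusted p = 0.116) and was lower without overlap, and it passed with DESeq2 (0.0147) but not with edgeR (0.057). The adipocyte sum was 3.44, 1.99, 6.63 and 0 in lung metastases 1 to 4, against 120, 1.58, 47.5 and 1.51 in primary tumours 1 to 4, so the groups overlapped. The fibroblast and lung fibroblast sums were highest in lung metastasis 3, whereas Col1a1, Col1a2 and Col3a1 were not, and the part of these cells in the collagen values was not tested.

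The fibroblast markers that fell were Lrrc15 and Thy1 and those that rose were Dpt and Fbln1, all named after their values were seen. Lrrc15, a membrane protein of matrix-producing fibroblasts, had 0, 0, 0 and 0.504 in lung metastases 1 to 4, against 21.3, 3.43, 17.4 and 21.1 in primary tumours 1 to 4 (adjusted p = 0.00137). Lrrc15 reached a value of 1 in primary tumours only, so it was tested through that group alone. Thy1, a surface glycoprotein of fibroblasts and other cells, had 14.9, 9.14, 9.53 and 12.4 in lung metastases, against 57.0, 48.1, 57.9 and 68.4 in primary tumours (adjusted p = 0.000187). Dpt (dermatopontin) had 27.0 ± 10.0 in lung metastases and 6.52 ± 2.53 in primary tumours (SD, n = 4 each, adjusted p = 0.0116). Fbln1 (fibulin 1) had 17.1 ± 1.81 in lung metastases and 6.30 ± 3.42 in primary tumours (SD, n = 4 each, adjusted p = 0.0386), and its call was lost with edgeR (0.076). Lrrc15 and Thy1 were lower in every metastasis, and Dpt and Fbln1 were higher in every metastasis. Pi16, named for the same reason, was also higher without overlap and missed the threshold by limma (adjusted p = 0.0512), while it passed with edgeR (0.0471), with DESeq2 (0.000259) and with the mouse as a block (0.00904).

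By level per kilobase, the order of the chains was alike at the top in both groups. Col3a1, Col1a2 and Col4a1 held places 1, 2 and 3 in each, and the values of these 3 genes overlapped between neighbours in the order. Col1a1 was at place 6 in lung metastases and 4 in primary tumours, and Col6a1 at place 4 and 7. Further down, Col12a1 was at place 24 in lung metastases and 14 in primary tumours, and Col4a3 at place 17 and 33.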

How the data were processed

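RNA of bulk tissue was extracted with an RNeasy kit and sequenced from TruSeq libraries, per the labels' protocols, which do not describe the kit as strand-marking, so reads of antisense transcripts cannot be told apart. The build was mm9, per the submitters' processing notes. Aligner and counter: not given in the sources used here. The values are normalised signal that the authors deposited in 1 table, in which the reads of a gene are divided by a scaled size of the library. Its BC columns summed to 962401 to 1044330, so they are not plain CPM, and dividing by what 1 read is worth gave whole reads for 100% of values (tolerance 0.05 reads). Only the 8 BC columns were used. The 12 PDAC columns are not aligned to the gene column (Spearman's rho of BC and PDAC means 0.102 across rows).

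limma 3.58.1 in R 4.3.3, with an intensity trend, was run on log2(value + 1) for genes that reached 1 in 4 or more libraries, with group means only. This scale understates the change of low genes. Its steps were tested on simulated data. Alternatives were pseudocounts of 0.1 and 5, no filter, median-ratio and TMM scaling, the mouse as a block, edgeR 4.0.16 and DESeq2 1.42.0 on the recovered reads, and leaving out each library. The members and all lists were chosen with earlier results of these data known. Genes named were called members, members without overlap, the 12 most abundant, partners in a trimer, and the called genes or those of smallest p in each list. The number after 4T in each title was read as the mouse, although 4T1 is also the name of the line. The series text calls tumours matched, so same-numbered libraries were paired. Deviations from group means correlated between them at a median of 0.0208 (-0.151 to 0.0962). Lengths per kilobase are unions of exons. Promoter windows and neighbours are from RefSeq (GRCm38.p6). Coordinates are of that build and not of the counts.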

Additional observations from a re-analysis of the deposited data

Results flagged for a closer look

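In 64 groups of 4 values (20 named chains and 12 summed quantities in each tissue), 8 had a library far from the other 3 by Dixon's outlier rule. For independent normal values the rule flags about 1 in 20 groups. Here the values were not log-transformed and the sums contain named chains, so the 8 cannot be set against that rate. In lung metastasis 3, Col4a2 stood at 625 (others 190 to 249), Col4a4 at 121 (others 4.92 to 24.1), Col13a1 at 34.9 (others 10.9 to 14.6), the transmembrane sum at 88.2 (others 25.7 to 36.1) and Col12a1 at 10.1 (others 18.8 to 19.5). In primary tumour 2, Col3a1 stood at 110 (others 760 to 836). In primary tumour 1, Col4a4 stood at 0.517 (others at 0), a pattern that the rule always flags. In primary tumour 4, Col23a1 stood at 1.87 (others 0.0397 to 0.158).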

How the results depend on the processing

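The count of called collagen chains was 6 to 9 over the alternatives, against 8. Col4a3, Col12a1, Col15a1, Col5a3 and Col23a1 passed in all 17 alternatives, and Col13a1 and Col4a4 in the 16 and 12 that tested them. The 12 for Col4a4 all kept every lung metastasis. Without both lung metastasis 3 and primary tumour 2, a choice made after seeing the data, 2 chains were called higher, since Col4a4 and Col13a1 then fell below the filter, and Col1a1 (log2 change -0.84) and Col7a1 were called lower. Over all genes, the calls higher ran from 453 to 877 when 1 library was left out, against 1005. The calls lower ran from 77 to 370, against 274, and were 176 with the mouse as a replicate block, 517 with DESeq2 and 427 without both libraries. The block lost no collagen chain but Col6a3. Chains that were not called changed sign. Col4a1 (-0.03) was 0.0048 with median-ratio scaling, 0.059 without both libraries and -0.29 to 0.32 with 1 library left out. Col1a2 (0.10) was -0.032 with edgeR, -0.013 with DESeq2, -0.20 without both and -0.38 to 0.29 with 1 left out. Col16a1 and Col5a1 were 0.073 and 0.039 without both. With 1 left out, Col4a2 ran from -0.30 to 0.49, Col3a1 from -0.20 to 0.80, Col5a1 from -0.25 to 0.0073 and Col5a2 from -0.44 to 0.13. The cause was not tested. Low chains are limited by depth, since 1 read was worth up to 0.0676.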
